A study of Drosophila melanogaster with 12 samples.

Results

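The transcripts described here are the 4 named array features whose PTZ over NF ratio was high on the arrays of 1 dye orientation at both early time points of a chronic drug experiment in fly heads, namely CG9084, Ets97D, tobi and CG34195. On the arrays of the other orientation at the same time points their means were -0.01, -0.39, -0.33 and 0.09, in that order, as deposited. They were chosen by a rule on measured values. The mean of each probe's 2 adjacent spots was taken as 1 feature, the median of all features was subtracted from each array, and a feature was kept if its log2 ratio was 0.3 or more on each of 4 arrays (replicates 1 and 2 of 12 hrs and of the 2nd day) and its annotation held 1 gene symbol. Of 13824 features, 7558 had 1 symbol, 2101 of these had a value on all 4 arrays, and 4 met the rule, which is 0.19% of the 2101. A further 5 features met it without a symbol and are not named. At the other end, 39 features with 1 symbol were at -0.3 or less on all 4 arrays.

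Unmated Oregon-R wild type males, 3 to 4 days old at the start and 30 to a vial, were kept on food with 8 mg/ml pentylenetetrazole (PTZ, a convulsant that blocks GABA-gated chloride channels) or on normal food (NF) without the drug for 12 hrs, 2 days or 7 days. RNA of pooled heads from both groups was hybridised together on 2-colour cDNA arrays, 4 per time point and 12 in all, so that each value is a ratio of PTZ to NF and holds no level of its own. Each array therefore carries its own NF reference, and 1 value is 1 pair of pooled samples that the methods call a biological replicate. On replicates 1 and 2 of a time point PTZ RNA carried Cy5 and NF RNA Cy3 (forward arrays). On replicates 3 and 4 the dyes were exchanged (swapped arrays).

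The sources do not say if the ratios from the swapped arrays had been turned to PTZ over NF before deposit. A figure legend names the plotted ratio as red over green channel, averaged over replicates with balanced dye swaps, which leaves the sign of the swapped arrays unstated. Their values are given below as deposited, and "turned" means multiplied by -1. On a forward array a positive value means more signal from PTZ than from NF heads in either case, although a preference of a probe for 1 dye is part of it. The channel labels of 3 arrays contradict themselves (12 hrs replicates 3 and 4, and 2nd day replicate 2, which the rule used as a forward array), so that title, treatment protocol and methods were followed for them. Spots with a value ranged between 6148 and 18086 of 27648 per array. The swapped array 12 hrs replicate 3 stood apart: its centred values had an SD of 0.61, and 6.48% of its spot pairs differed by more than 1 log2 unit, against 0.426% to 4.35% on the other arrays. Across the 2101 features, the forward arrays of 12 hrs and the 2nd day correlated with each other at Pearson's r between 0.30 and 0.69. Those of 12 hrs correlated with the swapped arrays of 12 hrs at -0.31 to -0.08, and those of the 2nd day with the swapped arrays of the 2nd day at -0.05 to 0.28. These r describe genes on shared arrays, which are not independent.

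As background, Ets97D (also called delg) encodes an ETS-domain transcription factor, the fly homologue of the mammalian GABP alpha subunit, which regulates nuclear genes of mitochondrial function. The name of tobi stands for target of brain insulin, and its product is an alpha-glucosidase, an enzyme that releases glucose from sugar chains. Its transcript responds to insulin and adipokinetic hormone signalling and to diet and is known from gut and fat body, which in the head lies around the brain. CG34195 carries the synonym METTL6, the name of a mammalian methyltransferase that modifies transfer RNA. No role is given here for CG9084.

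CG9084 (Entrez gene 36172) had the highest mean of the 4 transcripts over the forward arrays that chose them. It stood at 0.32 and 0.66 at 12 hrs and at 1.02 and 1.01 on the 2nd day, in replicates 1 and 2, a mean of 0.75 ± 0.33 (SD, n = 4 arrays). Both values of the 2nd day lay above both of 12 hrs. The transcription factor gene Ets97D (CG6338, Entrez gene 43236) followed with 0.32 and 0.52 at 12 hrs and 0.96 and 0.98 on the 2nd day, a mean of 0.70 ± 0.33 (SD, n = 4). As for CG9084, its values on the 2nd day were above those of 12 hrs on both arrays.

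The alpha-glucosidase gene tobi (CG11909, Entrez gene 43072) was lower and more even, at 0.34 and 0.39 at 12 hrs and 0.51 and 0.48 on the 2nd day, a mean of 0.43 ± 0.08 (SD, n = 4). CG34195 (Entrez gene 37018) had 0.36 and 0.31 at 12 hrs and 0.44 and 0.59 on the 2nd day, a mean of 0.43 ± 0.12 (SD, n = 4). All 4 transcripts were thus higher on each forward array of the 2nd day than on either of 12 hrs. Because these 16 values chose the transcripts, they are a description and were not tested. The forward arrays of the 2nd day were also wider as a whole, with 22.7% and 19.5% of all features at 0.3 or more, against 6.73% and 11.2% on those of 12 hrs.

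**Figure D1:**
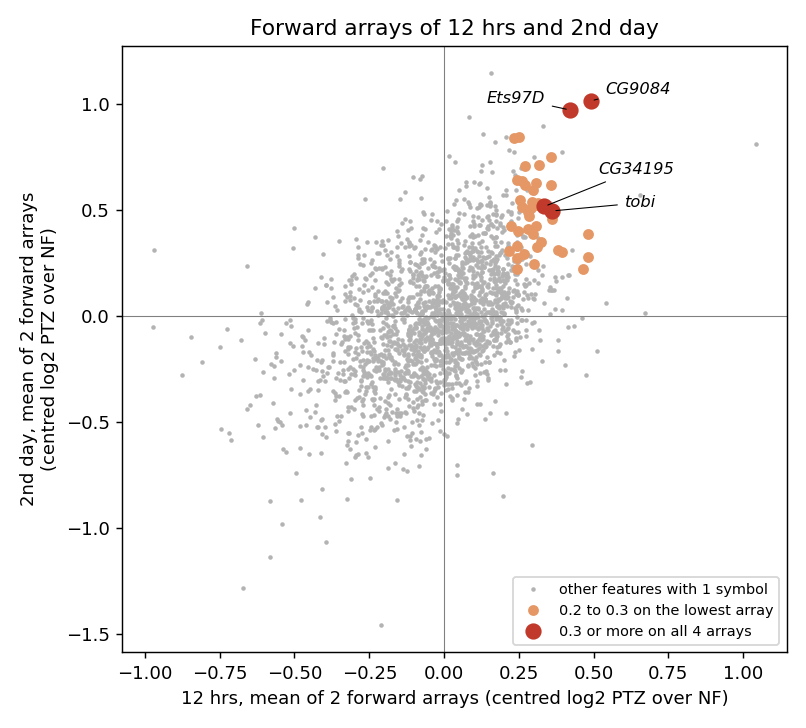
Mean centred log2 ratio of PTZ over NF on the 2 forward arrays of 12 hrs (x axis) and of the 2nd day (y axis) for the 2101 features with 1 symbol and all 4 values. CG9084 and Ets97D lie near 1.0 on the 2nd day axis, while tobi and CG34195 lie near 0.5 among the features whose lowest array was between 0.2 and 0.3.

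The rule was met narrowly. The lowest of the 4 forward values was 0.337 for tobi, 0.318 for CG9084, 0.317 for Ets97D and 0.312 for CG34195. The 3 nearest features below the threshold had lowest values of 0.298 for CG10359, 0.294 for Arr1 (arrestin 1, a photoreceptor protein that binds activated rhodopsin) and 0.286 for CG10911. Only 21 of the 2101 features reached 0.3 on both forward arrays of 12 hrs, against 171 on both of the 2nd day, and the lowest value of each of the 4 transcripts was at 12 hrs. In rank, the values of CG9084 lay between the 94.3rd and 98.6th percentile of an array's features and those of Ets97D between the 94.2nd and 97.4th. Those of tobi lay between the 87.9th and 95.5th, and those of CG34195 between the 85.0th and 96.7th.

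The single spots behind the averages were all positive after centring, 8 of 8 for each transcript. Not all of them reached 0.3. For CG9084 and for Ets97D 7 of 8 spots did, and for tobi and CG34195 6 of 8. When both spots had to reach 0.3 on each of the 4 arrays, 0 features met the rule. Among these arrays, the widest spot pair of CG9084 was on 2nd day replicate 2, with deposited values of 0.634 and 0.986, and that of Ets97D was on 12 hrs replicate 2, with 0.331 and 0.720. These spots of a pair were further apart than the threshold of 0.3.

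**Figure D2:**
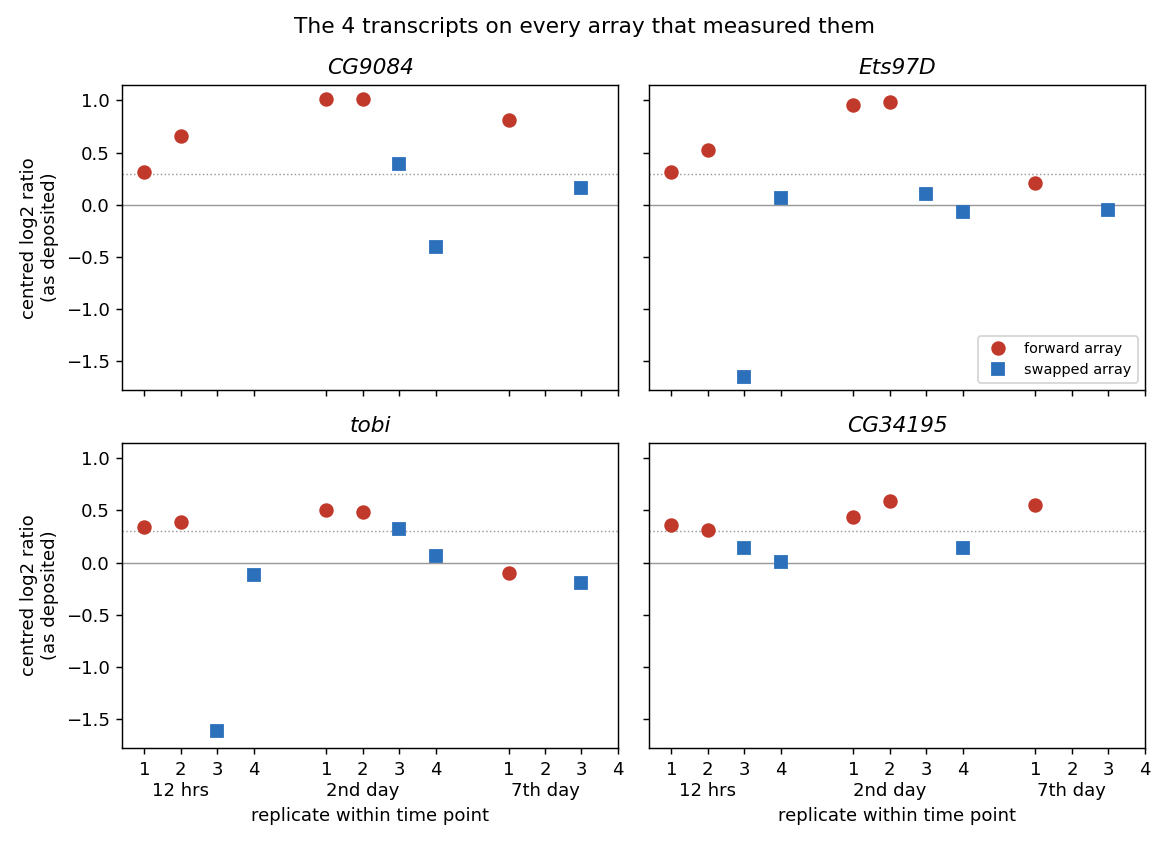
Centred log2 ratio as deposited (y axis) of each of the 4 transcripts on every array with a value, by replicate within time point (x axis). Circles are forward arrays, squares are swapped arrays, and the dotted line marks 0.3. The forward values of 12 hrs and the 2nd day are all above the line by the rule, and the values of Ets97D and tobi on 12 hrs replicate 3 lie near -1.6.

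Features that stand beside each other in array order were also positive around these transcripts. The median of the 10 features before and the 10 after CG9084 was 0.04 and 0.10 on the forward arrays of 12 hrs and 0.42 and 0.46 on those of the 2nd day. Around Ets97D it was 0.07 and 0.11 at 12 hrs and 0.82 and 0.36 on the 2nd day. CG9084 and Ets97D were above their neighbours on 4 of 4 arrays. Around tobi the neighbours' median was 0.08 and 0.17 at 12 hrs and 0.38 and 0.39 on the 2nd day, and tobi was above it on 4 of 4 arrays.

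Around CG34195 the neighbours' median was 0.17 and 0.40 at 12 hrs and 0.15 and 0.74 on the 2nd day, and the transcript was above it on 2 of 4 arrays only. With the neighbours' median subtracted, the mean over the 4 forward arrays was 0.50 for CG9084, 0.35 for Ets97D, 0.17 for tobi and 0.06 for CG34195. The rule applied to such values was met by 4 features, none of which were among the original 4. They were CG6696, Mlc2 (a myosin light chain), ND-51 (a subunit of respiratory complex I) and Zasp66 (a protein of the muscle Z-disc), named after their values were seen.

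**Figure D3:**
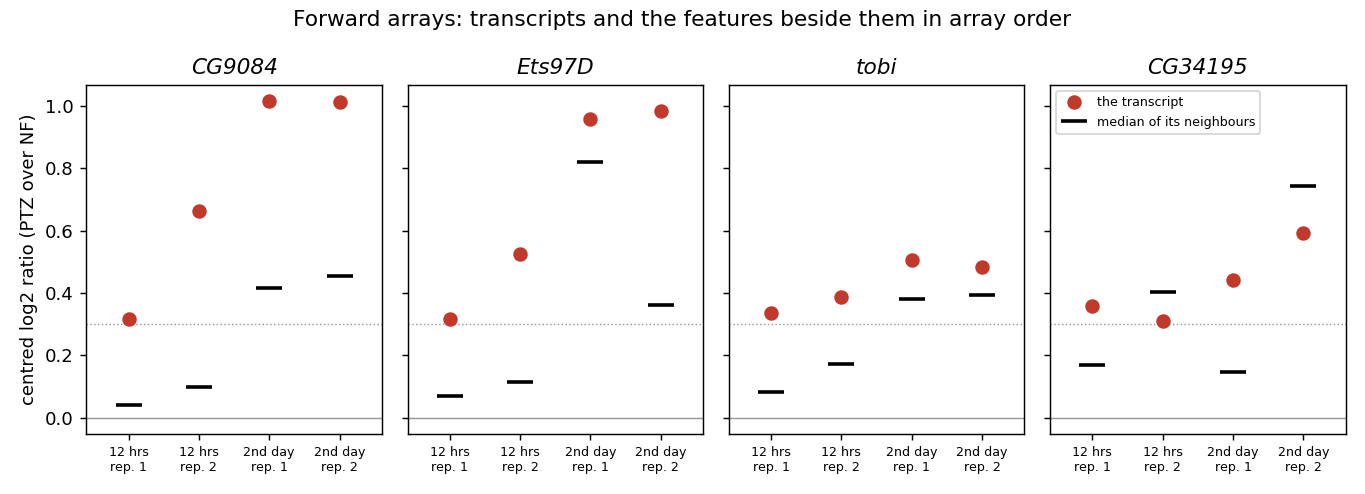
Centred log2 ratio of PTZ over NF (y axis) of each transcript (circles) and the median of the features within 10 places of it in array order (bars) on the 4 forward arrays (x axis). CG9084 and Ets97D lie above the bars on every array, and CG34195 lies below its bar on 12 hrs replicate 2 and 2nd day replicate 2.

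The swapped arrays of 12 hrs and the 2nd day were not used by the rule and give values of the same transcripts that did not choose them. A preference of a probe for 1 dye is part of these values too. Across features, the swapped arrays of 12 hrs correlated with those of the 2nd day at Pearson's r between 0.0025 and 0.24. On these 4 arrays (replicates 3 and 4 of each time point) 0 of 5092 features, each with 3 or 4 values, passed an adjusted p of 0.05 (limma, 1 mean per feature, 2-sided, Benjamini-Hochberg), which is 0% called. Without adjustment 523 features had a p under 0.05, 222 with a positive and 301 with a negative mean as deposited. Of the 4 transcripts 3 could be tested, 0 were called, and 0 had an unadjusted p under 0.05. As limma called no feature at all here, the lack of a call does not tell these transcripts from other features. SAM with all sign flips called 3 features, none of them among the 4. Turning the arrays reverses each sign here and leaves each p as it is. An SE given with a limma p is limma's moderated SE, which draws on the spread of all features tested. The unmoderated SE uses the values of the transcript alone.

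Ets97D had -1.65 and 0.06 at 12 hrs and 0.11 and -0.07 on the 2nd day, in replicates 3 and 4. The first of these rests on 1 spot, on the array that stood apart, and the other 3 lie within about 0.1 of zero. Its mean was -0.39 ± 0.29 (SE, n = 4, limma adjusted p = 0.612, unmoderated SE 0.42), and without 12 hrs replicate 3 it was 0.034 (adjusted p = 0.935). The sign of the mean thus depended on that array.

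The 4 swapped values of tobi were -1.61 and -0.12 at 12 hrs and 0.32 and 0.07 on the 2nd day. Its low value on 12 hrs replicate 3 averaged spots of -2.85 and -0.554 as deposited, which differ by more than 1 log2 unit. The mean was -0.33 ± 0.30 (SE, n = 4, limma adjusted p = 0.664, unmoderated SE 0.43), and 0.091 without that array (adjusted p = 0.833). On the 2nd day alone it was 0.20 ± 0.13 (SE, n = 2, limma adjusted p = 0.752), with both arrays positive as deposited. This fit of the 2nd day alone called 21 of 4686 features, 8 higher and 13 lower as deposited.

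CG34195 had 0.14 and 0.00 at 12 hrs and 0.14 on 2nd day replicate 4, with no value on replicate 3. The 3 values were close together and near zero, and their mean was 0.09 ± 0.09 (SE, n = 3, limma adjusted p = 0.670, unmoderated SE 0.05). However, the value on 12 hrs replicate 3 averaged spots of -0.375 and 0.470 as deposited, which oppose each other. CG9084 had values only on the 2nd day, 0.39 and -0.40, which oppose each other. Their mean was -0.01 ± 0.16 (SE, n = 2, limma adjusted p = 0.995 in a fit of the 2nd day alone), and the 2 values themselves had an SD of 0.56. On 2nd day replicate 3, CG9084 and tobi, 2 of the 3 with a value, were at 0.3 or more as deposited, where 5.87% of all 6338 features with a value were. Turned, these 2 were at -0.39 and -0.32. On 2nd day replicate 4 none of the 4 transcripts reached 0.3 as deposited, and CG9084 was at 0.40 when turned.

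Between the orientations, CG9084 on the 2nd day averaged 1.01 on the forward arrays, against -0.01 on the swapped arrays as deposited, with no overlap. Ets97D on the same day averaged 0.97 on forward and 0.020 on swapped arrays. For tobi the averages were 0.50 and 0.20, and CG34195 had 0.52 on the forward arrays and 0.14 on the single swapped array. In neither reading did a swapped value of the 2nd day reach the forward values of the same transcript. The rule chose high forward values, so that this gap was not tested.

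Averages over both orientations include the forward arrays that the rule used and are a description. As deposited, Ets97D averaged -0.19 ± 0.99 at 12 hrs and 0.50 ± 0.55 on the 2nd day (SD, n = 4 each), and tobi averaged -0.25 ± 0.93 and 0.35 ± 0.20 (SD, n = 4 each). CG34195 averaged 0.20 ± 0.16 (SD, n = 4) at 12 hrs and 0.39 ± 0.23 (SD, n = 3) on the 2nd day, and CG9084 0.49 ± 0.24 (SD, n = 2, both forward) and 0.50 ± 0.67 (SD, n = 4). The SD was thus smaller than the mean for CG34195 at both time points, for tobi on the 2nd day and for CG9084 at 12 hrs, and larger than its size for the others.

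In the turned reading, Ets97D averaged 0.61 ± 0.73 and 0.48 ± 0.58, and tobi 0.61 ± 0.68 and 0.15 ± 0.41, at 12 hrs and on the 2nd day (SD, n = 4 each). CG34195 averaged 0.13 ± 0.24 (SD, n = 4) and 0.30 ± 0.39 (SD, n = 3), and CG9084 on the 2nd day 0.51 ± 0.67 (SD, n = 4). In this reading the SD exceeded the mean in all of these.

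**Figure D4:**
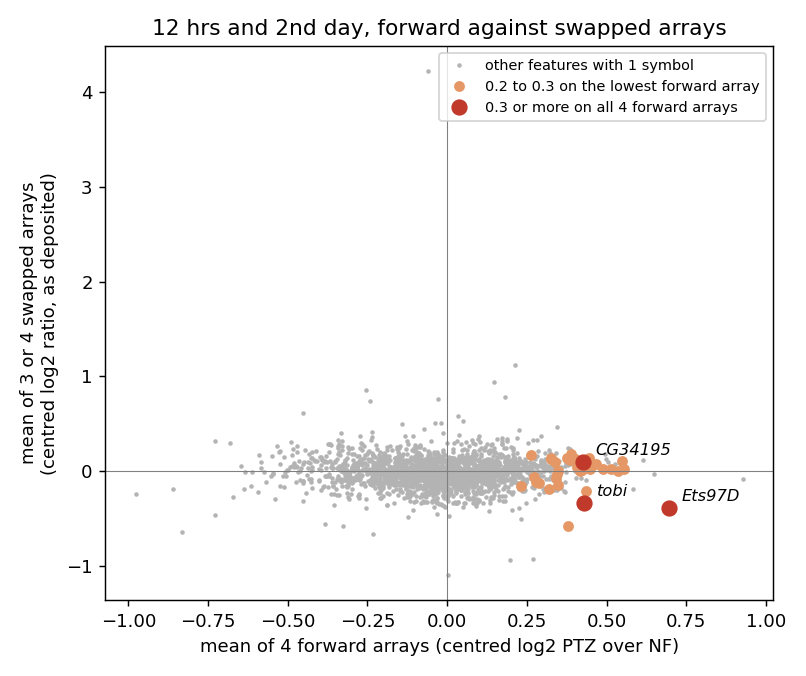
Mean centred log2 ratio on the 4 forward arrays (x axis, PTZ over NF) and on the swapped arrays as deposited (y axis) of 12 hrs and the 2nd day, for features with 1 symbol and at least 3 swapped values. CG34195 lies at 0.09, tobi at -0.33 and Ets97D at -0.39 on the y axis, while CG9084 has only 2 swapped values and is not drawn.

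The 7th day, which the rule did not use either, was measured for these transcripts on replicate 1 (forward) and replicate 3 (swapped) only, and none had a value on replicates 2 and 4. On the forward array CG9084 was again high at 0.82, the 98.4th percentile of that array, and CG34195 stood at 0.55. Ets97D was at 0.21 and tobi at -0.10. CG9084 and CG34195 were thus at 0.3 or more on an array where 26% of 9051 features were. Across features, that array correlated with forward replicate 2 of the 7th day at Pearson's r of -0.07. With swapped replicate 3 of the 7th day it correlated at 0.33 as deposited.

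On the swapped array of the 7th day CG9084 was at 0.16, Ets97D at -0.05 and tobi at -0.20, as deposited, and CG34195 had no value. No transcript had the 3 values that the test of the 7th day required, where limma called 0 of 4316 features in either reading (95 had an unadjusted p under 0.05 in the turned reading and 258 as deposited). With at least 2 values required, 7792 features were tested, 3 of the 4 transcripts among them. In this fit limma called 0 features with the swapped arrays turned, which is 0%, and 4 as deposited, which is 0.0513%, with none of the transcripts in either.

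In that fit CG9084 averaged 0.33 ± 0.28 with the swapped array turned (SE, n = 2, limma adjusted p = 0.998) and 0.49 ± 0.24 as deposited (adjusted p = 0.827). Ets97D averaged 0.13 ± 0.22 turned (SE, n = 2, limma adjusted p = 0.998) and 0.08 ± 0.23 as deposited (adjusted p = 0.981). The averages of tobi were 0.05 ± 0.23 turned (SE, n = 2, limma adjusted p = 0.998) and -0.15 ± 0.22 as deposited (adjusted p = 0.971). This moderated SE exceeded the size of the mean for Ets97D and tobi in both readings. The SD of the 2 values, turned and as deposited, was 0.69 and 0.47 for CG9084. It was 0.11 and 0.18 for Ets97D, and 0.21 and 0.07 for tobi.

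Whether the 7th day differs from the earlier time points was tested on the swapped arrays alone. Where 5 or 6 of the 6 arrays had a value, 3594 features were tested, 0 were called (0%), and 245 had an unadjusted p under 0.05. The 7th day minus the average of 12 hrs and the 2nd day was 0.34 ± 0.58 for Ets97D (SE, 1 array against 4, limma adjusted p = 0.923) and 0.13 ± 0.51 for tobi (1 array against 4, adjusted p = 0.979), both with their low value on 12 hrs replicate 3 in the fit. The 7th day is replicate 3 alone here, and its spread is taken to be that of the earlier arrays, so these values say little about a difference. With all 6 values required, 0 of 1652 features were called, and none of the 4 transcripts could be tested. CG9084 and CG34195 had too few values for either fit.

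Over all arrays as deposited, CG34195 was above 0 on 8 of the 8 arrays that measured it, with only 0.001 on 12 hrs replicate 4. CG9084 was positive on 7 of 8, Ets97D on 7 of 10 and tobi on 6 of 10. In each of these counts the rule fixed 4 arrays. With the swapped arrays turned, the 3 swapped values of CG34195 become negative.

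At a lower threshold of 0.2 the rule was met by 42 of the 2101 features (2%), the original 4 among them. Of the additional 38, 3 were in the list of oxidative phosphorylation. They were ND-SGDH (a subunit of complex I), SdhC (a subunit of succinate dehydrogenase) and ATPsyngamma (the central stalk of ATP synthase), with means of 0.54, 0.28 and 0.29 over the 4 forward arrays. The SD was 0.60, 0.02 and 0.10, in that order. ND-SGDH averaged 0.23 on the forward arrays of 12 hrs and 0.84 on those of the 2nd day.

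Of the list of oxidative phosphorylation, 29 features had all 4 forward values, with a median of 0.13, against -0.02 over the 2101 features. Other lists were as high or higher, among them proteasome and ubiquitin with 0.20 (17 features) and cytosolic ribosomal proteins with 0.14 (20 features), none of whose features reached 0.2 on all 4 arrays. None of the 29 reached 0.3 on all 4 arrays and 3 reached 0.2 (10.3%), against 2% of the 2101 features. This share was 11.1% for chaperones and for phototransduction (1 of 9 features each). It was 25% for eye pigment and lens (1 of 4) and 33.3% for gut digestion (1 of 3), while most lists had none. These shares draw on the arrays that the rule used. On the swapped arrays of 12 hrs and the 2nd day the median of the oxidative phosphorylation list was -0.08 over 34 features tested, against 0.00 over the 3064 tested features with 1 symbol, with 0 called. An unadjusted p under 0.05 was found for 2 of the 34 (5.88%), against 324 of the 3064 (10.6%). The mitochondrial ribosomal proteins had a median of 0.01 over 13 features on the forward arrays and of 0.01 over 24 on swapped ones. No set test was made, and the lists were chosen with earlier results of these data known.

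In the list of gut digestion, which holds tobi, 3 features had all 4 forward values, with a median of 0.31 and a range of 0.19 to 0.43. Its 3 features on the swapped arrays had a median of 0.01, with 0 called. In the fat body list, which also holds tobi, the 12 features with 4 forward values ran between -0.86 and 0.43 with a median of 0.00. On the swapped arrays the 17 tested had a median of -0.19, 0 called, and 8 had an unadjusted p under 0.05 (47.1%, 3 higher and 5 lower as deposited), against 10.6% of all tested features with 1 symbol. None of these 8 was tobi. Other lists with a large share were glia (2 of 6, 33.3%), chaperones (3 of 11, 27.3%) and chemosensory proteins (6 of 24, 25%). The fat body list held 29 features of 22 genes, so that a gene could count more than once.

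Markers of the other cells that a head sample could hold were counted in the same way. On the forward arrays the medians were -0.16 for neuron and synapse (13 features), -0.04 for glia (5), -0.08 for phototransduction (9), 0.09 for eye pigment and lens (4), 0.05 for muscle (10), 0.04 for hemocyte (2) and 0.00 for testis and accessory gland (3). None of their features was at 0.3 or more on all 4 arrays, and 2 reached 0.2, Arr1 and lt (light, a gene of vesicle transport to pigment granules). On the swapped arrays 0 features of any of these lists were called. Since a ratio holds no level, the presence of each cell type could be checked only as its genes' being measured, and fewer cells of a type cannot be told apart from less RNA per cell. Their part in the values of the 4 transcripts was not tested.

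On the swapped arrays, 37 of the 42 features had at least 3 values, and their median was 0.02, with 25 above and 12 below 0 as deposited. The highest was Polr3D (a subunit of RNA polymerase III) at 0.19 and the lowest CR32477 at -0.58. None of the 37 was called, and 1 had an unadjusted p under 0.05 (limma). Of all 5092 features tested, whose median was 0.00, 523 had such a p (10.3%). By array, the median of the 42 was 0.00 and 0.00 on replicates 3 and 4 of 12 hrs, 0.13 and -0.05 on those of the 2nd day, and 0.10 and 0.20 (over 8 features) for forward replicates 1 and 2 of the 7th day. It was 0.01 and -0.23 on the swapped arrays of the 7th day, the last over 10 features.

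Of the features just outside the threshold, Arr1 had 0.29 and 0.67 at 12 hrs and 0.44 and 0.34 on the 2nd day on the forward arrays. On the swapped arrays it had -0.16 and -0.82 at 12 hrs and 0.02 and 0.15 on the 2nd day. Later, on the 7th day, it had -0.71 on the forward array and -0.40 and -0.70 on the swapped arrays, as deposited. Its forward value of the 7th day thus lay on the other side of 0 from its 4 earlier ones.

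On forward arrays CG10359 had 0.42 and 0.30 at 12 hrs, 0.78 and 0.72 after 2 days and 0.27 after 7 days, and all 6 of its swapped values lay between -0.14 and 0.16. The forward values of CG10911 were 0.35 and 0.29 at 12 hrs, 0.75 and 0.67 after 2 days and -0.14 after 7 days. Its swapped values were -0.08 and -0.15 at 12 hrs, 0.39 and -0.06 after 2 days and -0.07 after 7 days. Of these 3 features, CG10359 alone stayed within 0.2 of zero on every swapped array of 12 hrs and the 2nd day.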

How the data were processed

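The authors scanned the arrays (GenePix) and normalised them by ratio in Acuity, and left out dim, saturated, badly shaped or marked spots. The deposited values are log2 ratios, read as such from their range. A legend gives the plotted ratio as red over green, but whether deposited swapped arrays were turned, and the genome build, are not given in the sources read here. Gene IDs gave a current symbol to 7447 of the 7558 features that had 1 symbol; 51 had several and 6215 none here.

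From these, the 2 adjacent spots were averaged and each array was centred on its median feature. Tests used limma (version 3.58.1, R 4.3.3) across all features with values on at least 3 arrays, 2-sided, and p-values were adjusted after Benjamini and Hochberg and called under 0.05. The fits were tested on simulated data. Named genes are all 4 transcripts, up to 4 per list, and the 3 features nearest below the threshold. Polr3D and CR32477 were chosen after seeing the data. So were the fits of the 7th day that required 2 values, or 5 of 6 swapped arrays. The transcripts, lists and tests were chosen with earlier results of these data known. Alternatives were other centring, scaling, neighbour subtraction, gene averaging, an unmoderated test, SAM, single time points, a replicate block and omission of each array in turn. With so few arrays per mean, precision is limited by their number. Sequences were not used here.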

Additional observations from a re-analysis of the deposited data

Results flagged for a closer look

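Ets97D at -1.65 on 12 hrs replicate 3 lay far below its other 3 swapped values of 12 hrs and the 2nd day, with a gap of 0.90 of their whole range. This value rests on 1 spot. CG10911 at 0.39 on 2nd day replicate 3 lay above its other 3 swapped values there, with a gap of 0.84 of the range. In all, 29 groups of 4 arrays were examined for such gaps, and chance alone marks about 1 in 20.

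For tobi, all values of the 7th day were negative and all of the 2nd day positive as deposited, a difference of -0.49 between the means (7th day minus 2nd day). Of the 4 values on the 2nd day, 2 are forward values that the rule required to be 0.3 or more, so both the split and the difference draw on values that chose the transcript. From the swapped arrays alone, tobi had -0.20 on the 7th day (1 array), against a mean of 0.20 on the 2nd day (2 arrays). Arr1 was split by sign between the same days, with -0.84, a feature singled out for its forward values near the threshold. These differences were not tested, and with the swapped arrays turned neither pair of days was split in this way.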

How the results depend on the processing

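The number of transcripts that met the rule changed by more than 1.5 times under every alternative but 1. The rule was met by 8 features without centring (CG9084 and Ets97D among them), 0 with both spots at 0.3, 9 with unnamed features kept, 42 at a threshold of 0.2, 0 at 0.4 and 9 with arrays scaled to a common spread (all 4 kept, an alternative chosen after seeing the data). Leaving out 1 forward array gave 8 to 44 features, namely 44 without 12 hrs replicate 1, 32 without replicate 2, 10 without 2nd day replicate 1 and 8 without replicate 2. With the neighbours' median subtracted the count stayed at 4 with 0 shared. For this count, neighbour subtraction and the omission of 1 forward array were also chosen after seeing the data. No alternative called any of the 4 transcripts in a fit that could test them. Of all features, the fit of the 2nd day alone called 21 of 4686. The fit of the 7th day as deposited without centring called 29 of 4316. Like most alternatives for the 7th day, that last fit could test none of the 4 transcripts. On the swapped arrays of 12 hrs and the 2nd day Ets97D turned to 0.020 on the 2nd day alone and 0.034 without 12 hrs replicate 3, and tobi to 0.20 and 0.091, with the other alternatives keeping the sign. Leaving out 1 array gave -0.55 to 0.034 for Ets97D and -0.55 to 0.091 for tobi. The median of the transcripts there was -0.17, and -0.48 to 0.05 when 1 array was left out. On the 7th day their median was 0.28 as deposited and 0.23 turned, and leaving out 1 array gave -0.046 to 0.38 and 0.046 to 0.38. Replicate 1 alone carried the forward median of 0.38. With the replicate number as a block and 5 of 6 values required, 0 transcripts were called in 7th day minus the earlier time points (0.72 for Ets97D and 0.44 for tobi, each with 1 array of the 7th day). The sources do not state whether same-numbered arrays of different time points shared more than the number. For replicate 3 of the swapped arrays, deviations from the time point means correlated at -0.05 to 0.16 across 1652 features. With all 6 values required, as in the other fits of the 7th day with 3 values, none could be tested. Most means rest on 2 to 4 arrays.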
